A study of Oryza longistaminata with 9 samples.

Results

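Cohesin and SMC chromosome proteins were examined as 5 gene models in the anther transcriptome of *Oryza longistaminata*, an African wild rice, out of 46327 models in the count table. They were taken by their description alone, as models described as a structural maintenance of chromosomes (SMC) protein or carrying a conserved region of Rad21/Rec8 proteins (PF04824 or PF04825). The match gave 3 SMC genes and 2 Rad21/Rec8 models. RNA of whole anthers was sequenced in 3 libraries at stage 4, when primary sporogenous cells arise by cell division (Ls-4mm, spikelets of 4 mm). Another 3 libraries came from stage 6, when microspore mother cells lie against the tapetum (Ls-6mm, spikelets of 6 mm). The study's results place the start of meiosis after stage 6, while its methods place meiosis of these cells at stage 6. All libraries came from anthers of the wild species, and the labels name no line, mutant or treatment. Libraries of 8.5-mm spikelets were not analysed here. Whole anthers mix germ cells with wall layers, so fewer cells of a type and less RNA per cell cannot be told apart in any level given below. No source used here states that replicates were separate plants, and the p-values therefore rest on a spread between libraries that may be technical.

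SMC proteins are long coiled-coil ATPases that work in pairs, and a kleisin subunit closes each pair into a ring. The cohesin ring holds sister chromatids together after DNA replication, the condensin ring compacts chromosomes for division, and a further SMC complex acts in DNA repair. Rad21 is the kleisin of cohesin in dividing somatic cells. Rec8 takes its place in meiosis, where it keeps sister chromatids joined through the first division. The table calls its 3 SMC genes by the family name only, and does not say to which of the complexes each gene belongs.

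Library totals ran from 14509449 to 21232663 counts, and edgeR estimated a biological coefficient of variation of 4.73% over all tested genes. Levels across stages are CPM, the counts after scaling of each library by its TMM-adjusted size, with the mean ± SD over 3 libraries where a mean is given. Levels of different genes are compared in the deposited FPKM, which also allow for coding length. The labelled tissue was checked with marker lists. Genes listed for anther wall and tapetum summed to 651 to 767 CPM at stage 4 and 1699 to 1764 CPM at stage 6 (31 genes, of which the anther-specific protein RTS and 1 fatty acyl-CoA reductase had 0 counts in every library). Of 19 that were tested, 16 were called higher and 2 lower at stage 6, beside 42.0% and 38.6% of all tested genes. Few genes made up most of the sums. BGIOSGA011938 was at 0.0651 CPM or less at stage 4 and at 499 to 563 CPM at stage 6. BGIOSGA009804 was at 102 to 119 and 460 to 470 CPM, and BGIOSGA029184 at 426 to 503 and 513 to 521 CPM. Of 4 genes listed for meiosis, 1 was at 0 counts in every library. The HORMA domain gene BGIOSGA014841 was at 51.5 to 61.5 CPM at stage 4 and 8.79 to 10.2 CPM at stage 6. Its description names the domain only, not a role in meiosis. The other two did not pass the test, with SPO11-1, which starts meiotic recombination, at 6.38 to 7.16 and 4.49 to 6.70 CPM, and the MND1 homolog BGIOSGA030086, which acts in the pairing of homologous chromosomes, at 16.9, 17.7 and 13.9 CPM at stage 4 and within that range at stage 6. The sum of the meiosis list, 74.7 to 86.4 and then 29.3 to 33.0 CPM, thus differed mostly through the HORMA domain gene. Green tissue genes summed to 2226 to 2567 and 5643 to 5856 CPM (49 genes, 1 at 0 in every library). The wall and green tissue sums and the HORMA domain gene differed between the stages along with the genes below, and their part in the results was not tested.

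All 5 cohesin and SMC genes were lower in anthers of 6-mm spikelets than in anthers of 4-mm spikelets. Their levels in Ls-6mm were 11.1% to 46.0% of those in Ls-4mm, and the decline was deepest in BGIOSGA028336 and shallowest in BGIOSGA035747. By edgeR's quasi-likelihood test with Benjamini-Hochberg adjustment over 23691 tested genes, 5 of 5 passed at an adjusted p under 0.05, where 38.6% of all tested genes were called lower and 80.6% were called in either direction. At a stricter threshold, an adjusted p up to 0.001 and a 2-fold decline or more, the count was again 5 of 5, where 13.3% of all tested genes were called. In each of the 5, every Ls-6mm library lay below every Ls-4mm library, which held for 39.0% of all tested genes, while the stages did not overlap in either direction for 81.7%. The median log2 fold change of the 5 genes was −1.99, the value of BGIOSGA028337, beside 0.04 over all tested genes. The 2 Rad21/Rec8 models may be parts of 1 gene, so these counts may rest on fewer than 5 separate genes. All 5 passed the filter on low counts, 4 of them in both stages, while BGIOSGA028336 passed it through the Ls-4mm libraries, with 1 of its Ls-6mm libraries above the filter.

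**Figure D1:**
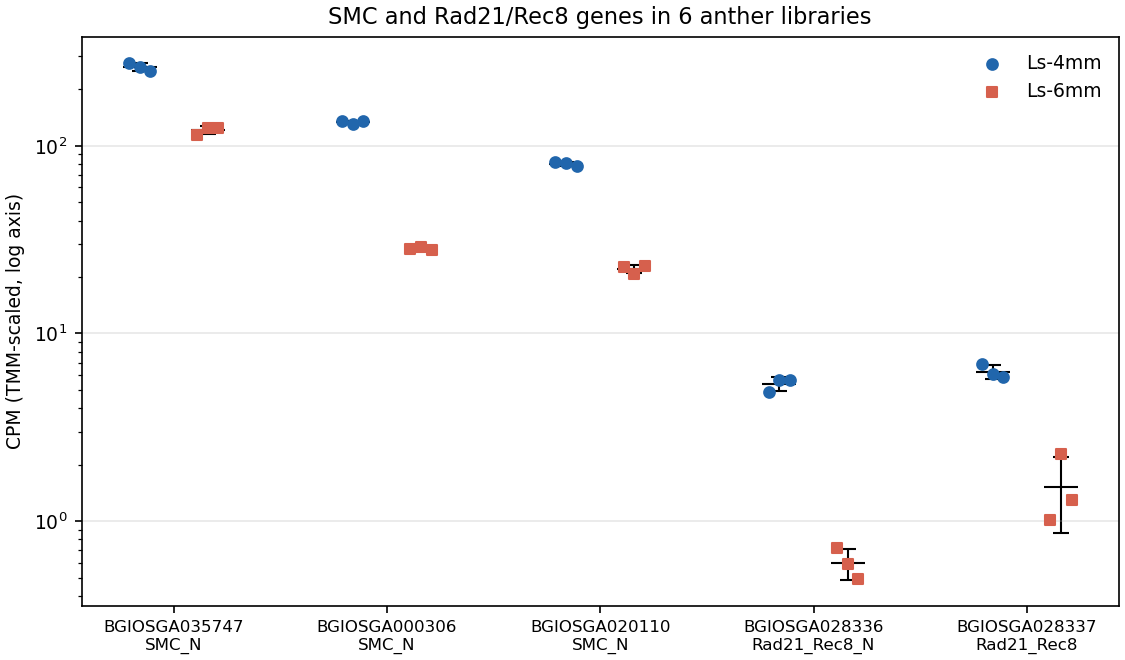
CPM of the 5 cohesin and SMC genes in each library, on a log axis, with Ls-4mm as circles and Ls-6mm as squares, and the mean and SD of 3 libraries as bars. The stages do not overlap in any of the 5 genes, and BGIOSGA028337 has the widest spread in Ls-6mm, from 1.02 to 2.27 CPM.

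The most abundant SMC gene was BGIOSGA035747, a protein-coding model on the minus strand of chromosome 12 from 23026842 to 23037434 with 3741 coding bases. It was measured at 278, 262 and 250 CPM in Ls-4mm and at 114, 125 and 124 CPM in Ls-6mm. The lowest Ls-4mm library was thus 2.01 times the highest Ls-6mm library. The log2 fold change was −1.12 (SE 0.05, edgeR adjusted p = 6.09e-13), the smallest decline of the 5. Of all tested genes, 11.9% had a lower log2 fold change. Per coding length this gene stood above 88.9% of tested genes in Ls-4mm and above 72.1% in Ls-6mm.

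A steeper decline was found in BGIOSGA000306, the second SMC gene, on the minus strand of chromosome 1 from 43051193 to 43058821 with 3516 coding bases. Its levels were 135, 131 and 135 CPM in Ls-4mm and 28.4, 28.9 and 28.0 CPM in Ls-6mm. Replicates were tight in both stages, with coefficients of variation of 1.71% and 1.64%, and the fall was by far larger than this spread. The log2 fold change was −2.23 (SE 0.05, edgeR adjusted p = 3.81e-17). In FPKM it went from above 77.8% of tested genes to above 39.3%.

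BGIOSGA020110, the third SMC gene, on the plus strand of chromosome 5 from 25864787 to 25874026 with 3726 coding bases, was at 82.0, 80.5 and 78.4 CPM in Ls-4mm. In Ls-6mm it was at 22.5, 20.9 and 22.8 CPM. The stages were again wide apart, with the lowest Ls-4mm library at 3.44 times the highest Ls-6mm library. The log2 fold change was −1.87 (SE 0.06, edgeR adjusted p = 6.73e-15).

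Both Rad21/Rec8 models were low in Ls-4mm and lower still in Ls-6mm, where no library held more than 46 counts of either. BGIOSGA028336 carries the N terminus of Rad21/Rec8 proteins, the part that in yeast and animals binds 1 of the SMC partners, and BGIOSGA028337 carries the conserved region at the other end of these proteins. They are neighbours on the plus strand of chromosome 8, from 11306897 to 11309455 and from 11309687 to 11311697, with 231 bases and no other model between them and with 900 and 1143 coding bases. Between them they hold both ends of a kleisin, and the table does not say whether they are parts of 1 gene, so they may not be independent.

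For BGIOSGA028336 the libraries held 75, 98 and 96 counts in Ls-4mm and 12, 12 and 8 counts in Ls-6mm. In CPM these were 4.88, 5.66 and 5.68 against 0.718, 0.592 and 0.492. The 95% exact Poisson intervals of the Ls-4mm libraries, which cover counting error only, began at 3.84 CPM or above, and those of the Ls-6mm libraries lay below this, so the gap exceeded the counting error. With a log2 fold change of −3.16 (SE 0.23, edgeR adjusted p = 1.08e-09) this was the largest decline of the 5, and 0.933% of tested genes had a lower value. On log2(FPKM + 1) values, which understate the change of low genes, limma gave −2.08.

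BGIOSGA028337 had 105, 105 and 99 counts in Ls-4mm and 17, 46 and 21 counts in Ls-6mm. In CPM these were 6.84, 6.07 and 5.86 against 1.02, 2.27 and 1.29. Ls-6mm replicate 2 stood above the other libraries of its stage, and its counting interval of 1.66 to 3.03 CPM lay just above that of replicate 1, which was 0.592 to 1.63 CPM. The interval of replicate 3, from 0.799 to 1.97 CPM, overlapped both. The log2 fold change was −1.99 (SE 0.23, edgeR adjusted p = 4.37e-07), and −2.43 without Ls-6mm replicate 2.

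**Figure D2:**
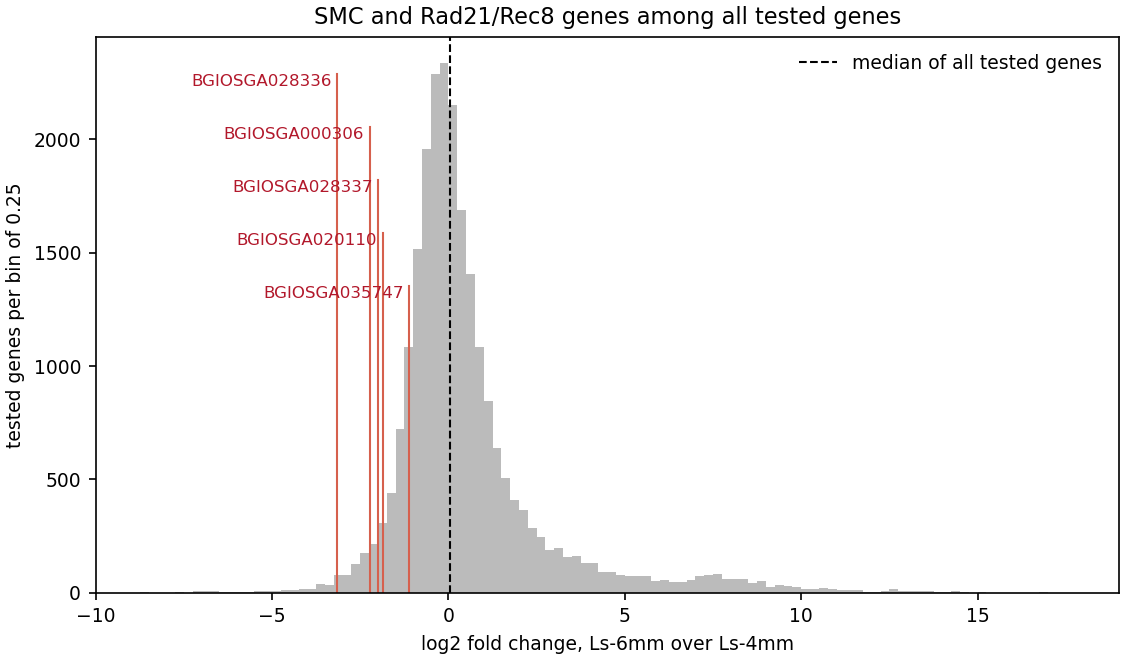
Distribution of the log2 fold change of Ls-6mm over Ls-4mm in 23691 tested genes (grey, genes per bin), with the 5 cohesin and SMC genes as vertical lines and the median of all tested genes, 0.04, as a dashed line. The 5 genes lie between −3.16 and −1.12, on the lower side of the distribution.

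The 5 genes did not decline in proportion, so the balance of their transcripts per coding length shifted between the stages. In FPKM the order in Ls-4mm was BGIOSGA035747 at 69.3 ± 4.05, BGIOSGA000306 at 37.5 ± 0.871 and BGIOSGA020110 at 21.2 ± 0.588, with no overlap between neighbours. The Rad21/Rec8 models followed at 5.91 ± 0.455 for BGIOSGA028336 and 5.39 ± 0.485 for BGIOSGA028337 (SD, n = 3), and these last overlapped. In Ls-6mm the values in the same order were 31.0 ± 1.56, 7.74 ± 0.130, 5.67 ± 0.266, 0.639 ± 0.120 and 1.28 ± 0.552 FPKM. The SMC genes kept their order. The Rad21/Rec8 models had no settled order in Ls-4mm, where BGIOSGA028337 was the higher in replicate 1 only, while in Ls-6mm it was at 0.851 to 1.90 and BGIOSGA028336 at 0.523 to 0.763 FPKM.

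As a share of the summed FPKM of the 5 genes, BGIOSGA035747 grew from 49.7 ± 1.15% to 66.9 ± 0.978% (SD, n = 3). BGIOSGA000306 went from 26.9 ± 0.870% to 16.7 ± 0.621%. The share of the first gene thus grew while its own level declined, since the sum went from 139 ± 5.04 to 46.3 ± 1.79 FPKM. If the Rad21/Rec8 models are parts of the same gene, this sum counts that gene in both parts.

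Ratios between 2 genes of a library do not depend on how the library was scaled. BGIOSGA035747 was at 1.93, 1.88 and 1.74 times the level of BGIOSGA000306 at stage 4 and at 3.78, 4.05 and 4.17 times its level at stage 6. This was a change of 1.11 on the log2 scale (standard error 0.06), and the stages were well separated. The ratio of BGIOSGA035747 to BGIOSGA020110 was 3.18 to 3.37 at stage 4 and 5.05 to 5.95 at stage 6, a log2 change of 0.74 (standard error 0.07). Between BGIOSGA000306 and BGIOSGA020110 the ratio lay at 1.73 to 1.83 at stage 4 and at 1.30 to 1.47 at stage 6, a log2 change of −0.37 (standard error 0.06). Each of the SMC genes therefore differed in its decline from the other SMC genes by more than the spread between libraries. A two-sided exact permutation test over the libraries gave p = 0.1 for each of these ratios, the smallest value that 3 against 3 libraries allow, and 0.125 after Benjamini-Hochberg adjustment over 10 pairs, so no ratio could pass the threshold.

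Of the 10 pairs, 8 had ratios that did not overlap between the stages. The share among pairs of all tested genes was not computed. Of single tested genes, 81.7% did not overlap between the stages in either direction. The ratio of BGIOSGA000306 to BGIOSGA028337 overlapped, at 6.99 ± 0.547 in Ls-4mm and 6.75 ± 2.47 in Ls-6mm (log2 change −0.12, standard error 0.34, exact permutation p = 0.9). So did that of BGIOSGA020110 to BGIOSGA028337, at 3.95 ± 0.239 and 5.01 ± 2.01 (0.25, standard error 0.38, exact permutation p = 0.5). With standard errors of this size these pairs are not shown to decline alike. The neighbouring Rad21/Rec8 models had a ratio of BGIOSGA028336 to BGIOSGA028337 of 0.907, 1.19 and 1.23 in Ls-4mm and 0.896, 0.331 and 0.484 in Ls-6mm. The closest libraries of the stages were thus almost level, and the log2 change of −1.07 had a standard error of 0.44 (exact permutation p = 0.1).

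Besides these 5 genes, the family column of the table assigns 3 further models to the N-terminal Rad21/Rec8 family, and their changes ran in both directions. The most abundant was BGIOSGA000325, described as a cohesin-like protein, on chromosome 1 from 42682925 to 42691757. It was at 172, 155 and 160 CPM in Ls-4mm and 108, 120 and 121 CPM in Ls-6mm. Its log2 fold change of −0.48 (SE 0.05, edgeR adjusted p = 1.19e-07) was a small decline, yet the stages did not overlap. BGIOSGA016644, a model without a description on chromosome 4 from 22808768 to 22814611, fell from 21.4 ± 1.86 to 10.9 ± 0.555 CPM (SD, n = 3; −0.96 ± 0.09 SE on the log2 scale, edgeR adjusted p = 5.56e-08).

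BGIOSGA020432, on the plus strand of chromosome 5 from 30233857 to 30240845 and without a description, rose. It was at 5.99, 4.51 and 4.50 CPM in Ls-4mm and at 10.7, 11.7 and 10.6 CPM in Ls-6mm. Every Ls-6mm library was above every Ls-4mm library, and the log2 fold change was 1.15 (SE 0.14, edgeR adjusted p = 6.36e-07). The table does not say whether this kleisin model is of the Rad21 or the Rec8 kind.

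**Figure D3:**
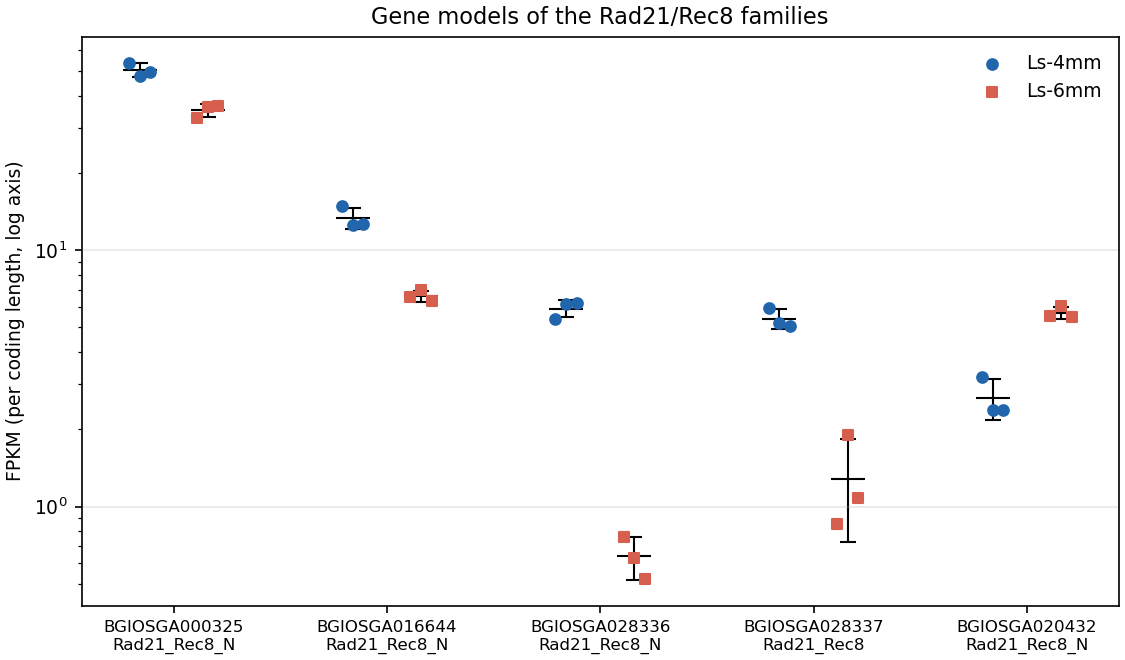
FPKM per coding length of the 5 models that the family column assigns to Rad21/Rec8 families, on a log axis, by library, with the mean and SD of 3 libraries as bars. BGIOSGA020432 is the lowest of the 5 in Ls-4mm, at 2.37 to 3.20 FPKM, and is near BGIOSGA016644 in Ls-6mm, at 5.48 to 6.03 FPKM.

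The makeup of the Rad21/Rec8 transcripts differed accordingly. Of the summed FPKM of these 5 models, BGIOSGA020432 held 3.40 ± 0.398% at stage 4 and 11.5 ± 0.466% at stage 6 (SD, n = 3). BGIOSGA028336 went the other way, from 7.65 ± 1.01% to 1.30 ± 0.308%. The cohesin-like gene BGIOSGA000325 held the largest share in both stages, at 64.9 ± 0.435% and 71.2 ± 1.70%. The sum itself went from 77.7 ± 4.78 to 49.3 ± 2.74 FPKM, so this share grew while the level of BGIOSGA000325 declined. If BGIOSGA028336 and BGIOSGA028337 are parts of the same gene, the sum counts that gene in both parts. The ratio of BGIOSGA016644 to BGIOSGA020432 was 4.62, 5.28 and 5.33 in Ls-4mm and 1.19, 1.16 and 1.15 in Ls-6mm. These transcripts were thus close to level in Ls-6mm after a wide gap in Ls-4mm, a log2 change of −2.12 (standard error 0.07, exact permutation p = 0.1).

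A list of partners and regulators of cohesin and condensin, matched by words in the descriptions, gave 10 further models, of which 7 passed the filter on low counts. Of these 7, 5 were called lower and 2 higher, where 38.6% and 42.0% of all tested genes were called in these directions, and the median log2 fold change was −0.48. The deepest decline was in BGIOSGA023778, described as condensin complex subunit 1, which works beside the SMC pair of condensin (chromosome 7 from 25788512 to 25797030). It was at 80.3, 80.1 and 77.8 CPM in Ls-4mm and at 12.6, 13.5 and 10.5 CPM in Ls-6mm. The log2 fold change was −2.70 (SE 0.07, edgeR adjusted p = 1.71e-15), below the values of the 3 SMC genes, and that difference was not tested. A sister chromatid cohesion protein, BGIOSGA025025 on chromosome 7 from 637088 to 651177, changed far less, from 118, 109 and 106 to 88.8, 102 and 90.3 CPM. Its stages were close, and the log2 fold change was −0.24 (SE 0.06, edgeR adjusted p = 0.00076).

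Of the 5 models in this list with an SMC N-terminal domain, 4 lie next to each other on the minus strand of chromosome 2 between 1939130 and 1984018, and they went in both directions. BGIOSGA007178, which also carries the flexible hinge through which SMC proteins pair, was at 196, 180 and 192 CPM in Ls-4mm and 50.2, 55.6 and 52.2 CPM in Ls-6mm (−1.84 ± 0.05 SE on the log2 scale, edgeR adjusted p = 1.31e-15). BGIOSGA007179, 667 bases away, was at 190, 180 and 167 CPM in Ls-4mm but only came down to 111, 115 and 114 CPM (−0.66, SE 0.05, edgeR adjusted p = 8.00e-10). Per coding length BGIOSGA007179 was the higher in every library, and the gap was wider in Ls-6mm. Their FPKM ratio, BGIOSGA007179 over BGIOSGA007178, was 1.19 to 1.37 and 2.85 to 3.03 (log2 change 1.19, standard error 0.07, exact permutation p = 0.1).

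The other models of this stretch were near the bottom of the measured range. BGIOSGA007177 was at 14, 27 and 18 counts in Ls-4mm and 42, 76 and 39 counts in Ls-6mm (1.29 ± 0.27 SE on the log2 scale, edgeR adjusted p = 0.000325). BGIOSGA007176 was at 13, 8 and 12 counts and at 30, 32 and 17 counts (1.14, SE 0.33, edgeR adjusted p = 0.00478), and it had 3 Ls-6mm and 2 Ls-4mm libraries above the filter. The table does not say whether the 4 models are separate genes.

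The 3 models that only the family column assigns to SMC proteins also fell. BGIOSGA017432 (chromosome 5 from 31077709 to 31091048) went from 141 ± 4.41 to 79.7 ± 4.01 CPM, BGIOSGA030299 (chromosome 9 from 1316409 to 1341886) from 129 ± 7.15 to 55.3 ± 1.42 CPM and BGIOSGA033770 (chromosome 11 from 18242855 to 18254957) from 30.8 ± 0.321 to 13.6 ± 0.650 CPM (SD, n = 3). Their log2 fold changes were −0.82, −1.22 and −1.18. In each, every Ls-6mm library lay below every Ls-4mm library, which held for 39.0% of all tested genes. With these, the family column and the descriptions gave 11 SMC models in all, of which 10 passed the filter, 8 were called lower and 2, both on chromosome 2, were called higher, beside 38.6% and 42.0% of all tested genes.

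**Figure D4:**
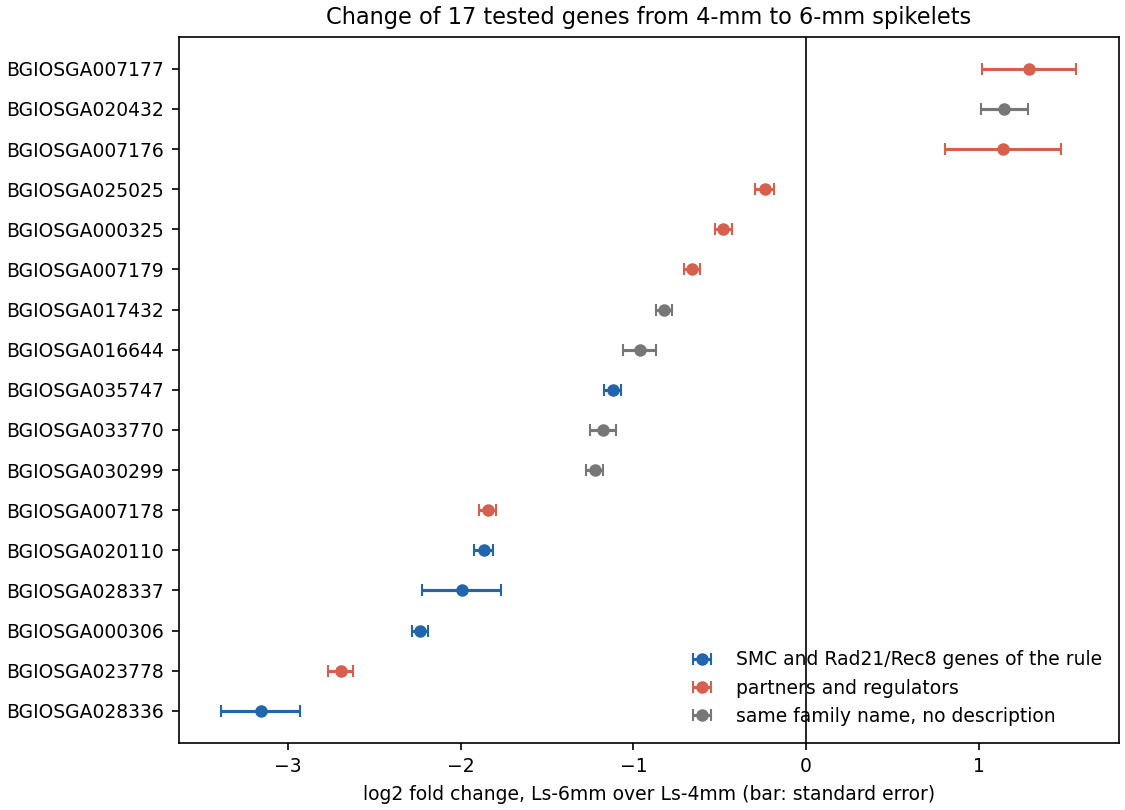
Log2 fold change of Ls-6mm over Ls-4mm with its standard error for the 17 tested genes described here, ordered by value, with the 5 cohesin and SMC genes in blue, partners and regulators in red and undescribed models of the same families in grey. Values run from −3.16 for BGIOSGA028336 to 1.29 for BGIOSGA007177, and 3 of the 17 are above 0.

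Genes of DNA replication and chromatin assembly moved the same way as the 5 cohesin and SMC genes. The replication list held 2 genes, an MCM model of the replicative helicase and PCNA, the sliding clamp, and both were called lower (median −2.07 on the log2 scale). A list of the 9 genes with MCM in the family column, added after the data were seen, had 9 called lower, with a median of −2.74 and a range from −2.92 to −1.23. It includes the MCM model of the replication list, so the lists are not separate. It also includes models described as probable DNA helicases MCM8 and MCM9, not as replication licensing factors. Of 47 tested core histone genes, 44 were lower and 2 higher, with a median of −1.77, where 38.6% of all tested genes were called lower and 42.0% higher. The median of the cohesin and SMC genes was −1.99, and no test of the difference was made. Of 3 tested genes listed for meiosis, 1 was called lower, the HORMA domain gene (−2.56, named after its value was seen), and the median of the list was −0.22.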

How the data were processed

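According to the study's methods, poly(A) RNA was sequenced with paired-end Illumina reads, filtered for adapters and quality, and aligned with HISAT2 2.0.5. The authors deposited raw whole-number counts per gene, made with featureCounts 1.5.0-p3 going by the submitters' processing notes. FPKM were also deposited by the authors, and in each library they equal counts over coding length and over 0.993 to 1.07 times the total. The study's methods point to an Ensembl sequence of O. longistaminata as reference, but the gene identifiers have the prefix of the O. sativa subsp. indica annotation, so the assembly of the positions is unsettled and they are printed as listed in the table. The strand setting was not stated either, so antisense reads cannot be told apart, and none of the 5 genes overlaps another model. Values in 36 further columns, whose names match no sample label, were not used, and libraries of 8.5-mm spikelets were not analysed here.

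The counts entered edgeR 4.0.16 (R 4.3.3) after filterByExpr with a minimum count of 10 and a minimum total of 15. A quasi-likelihood model with TMM scaling compared the stages, and an adjusted p under 0.05 (Benjamini-Hochberg, all tested genes) made a call. The test gives no standard error. The SE of an edgeR log2 fold change was therefore taken as the size of its coefficient over the square root of its F statistic. This procedure was tested on simulated data. The genes and lists were chosen with earlier results of these data known. Every gene matched by the rule and by the partner list was described, while models found through the family column, the MCM genes and the gene ratios were added after the data were seen. Within a stage, libraries differed by more than sampling noise (chi-square per degree of freedom 2.06 to 3.49), so none was a copy of another. Alternatives tried were RLE or plain library sizes, no filter, 10 counts or more in every library, DESeq2 1.42.0, a stricter threshold (FDR 0.001 and 2-fold), a replicate block, limma 3.58.1 on log2(FPKM + 1) or log2(FPKM + 0.1), and leaving out each library.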

Additional observations from a re-analysis of the deposited data

How the results depend on the processing

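The 5 cohesin and SMC genes were called lower under each alternative in which they were tested. With at least 10 counts in every library BGIOSGA028336 was not tested, and 4 of 4 were called, beside 8012 of 19954 tested genes called lower. Over the alternatives other than leaving out a library, log2 fold changes ran from −2.37 to −2.14 for BGIOSGA000306, −2.00 to −1.74 for BGIOSGA020110, −3.29 to −2.08 for BGIOSGA028336, −2.13 to −1.51 for BGIOSGA028337 and −1.26 to −1.06 for BGIOSGA035747. Leaving out each library in turn gave −2.43 to −1.78 for BGIOSGA028337 and −3.29 to −3.05 for BGIOSGA028336. The median of all tested genes was 0.04 with TMM and −0.10 with library size only, and no direction given for a named gene changed with it. Of the 7 partner genes, 2 were called lower and 1 higher at the stricter threshold of FDR 0.001 and 2-fold. Of all 23691 tested genes, 3145 were called lower and 5591 higher at that threshold. With at least 10 counts in every library 1 partner gene was called higher, beside 7898 of 19954 tested genes, and BGIOSGA007176 was not tested. With no filter, BGIOSGA033077 was also called lower, so that 6 of 9 partner genes were, beside 9925 of 32548 tested genes. Without Ls-4mm replicate 1 the count was 6 of 8, beside 9114 of 24281 tested genes. Of the 5 undescribed models of the same families, 2 were called lower and 1 higher at the stricter threshold, beside the same counts over all tested genes. With the replicate number as a block, 5 of 5 cohesin and SMC genes were again called lower, beside 8991 of 23691 tested genes. With this block, 5 partner genes were called lower and 2 higher, and 4 undescribed models lower and 1 higher, as in the main fit. Of all tested genes, 9833 were called higher with the block. The deviations of libraries with the same replicate number correlated at −0.0397 to −0.0139. Such a check cannot show whether these libraries shared a plant or a preparation. Ratios of named SMC pairs (cohesin, condensin and the repair complex), planned from their numbers, were not run because the table gives no such numbers.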

Other observations

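The remaining 3 models of the partner list did not pass the filter on low counts. BGIOSGA020109, with an SMC N-terminal domain and on the same strand of chromosome 5 as the SMC gene BGIOSGA020110, had 1, 0 and 3 counts in Ls-4mm and 0, 11 and 0 counts in Ls-6mm, so that its Ls-6mm counts came from replicate 2 alone. This model overlaps BGIOSGA017799 on the minus strand, and reads of either strand cannot be told apart. BGIOSGA033077, with the C terminus of shugoshin, a protector of centromeric cohesin, had 4, 14 and 15 counts in Ls-4mm and 4, 7 and 0 counts in Ls-6mm. BGIOSGA024991, with the C-terminal region of Nse4, the kleisin of the repair complex, had 0 counts in every library, which allows a level of up to 0.0605 CPM at stage 4 and 0.0563 CPM at stage 6 when 3 counts are taken as the limit over the libraries of a stage. These limits cover counting error only.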
